A study of Mus musculus with 22 samples.

Results

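The genes described here are 37 type I interferon stimulated genes, chosen by name and found by symbol in both deposited expression tables, 37 of the 24353 symbols that each table holds. They were followed through 5 treatments and both cell fractions of tumours of EMT6, a line from a mammary carcinoma of the mouse. Type I interferons bind a receptor made of IFNAR1 and IFNAR2, whose kinases phosphorylate STAT2. A complex that holds STAT2 and IRF9 then binds interferon stimulated response elements in the promoters of antiviral genes. The products degrade or trap viral RNA, block entry and budding, sense nucleic acids and, in the case of USP18, damp the receptor. In tumours such genes are read as a mark of cells that have met interferon, whether cancer cells, stroma or leukocytes.

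Each BALB/c mouse, 5 to 6 weeks old, carried EMT6 cells (200000 injected) in both inguinal fat pads, and every tumour was split with beads against CD45, a surface protein of leukocytes. The treatments were vehicle, JQ1 (an inhibitor of BET bromodomain proteins, which read acetylated histones, 50 mg/kg by daily gavage), JQ1 with paclitaxel (a microtubule drug, 10 mg/kg), JQ1 with an antibody against PD-L1 (a T cell checkpoint ligand, 10 mg/kg), and all 3 drugs together. Paclitaxel and antibody were injected 2 times a week, and no group received either without JQ1. The CD45-negative table holds 12 libraries, 3 for each group given paclitaxel and 2 for each other group. The CD45-positive table holds 10, 2 for each treatment. In both fractions, 3 groups (vehicle, JQ1, and JQ1 plus antibody) each carry 1 mouse code, under which their 2 libraries are a right and a left tumour. The groups given paclitaxel carry 3 codes each in the CD45-negative and 2 each in the CD45-positive table. For the 3 groups with 1 code the spread behind the p-values below may be that within 1 animal.

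Promoter sequences are shown because the interferon complex acts through a response element there, a feature that the choice by name did not use. Of the 37 members, 28 matched an entry in a RefSeq table of promoters (GRCm38.p6, 250 bases before to 50 after each annotated start). The core GAAANNGAAA was searched on both strands. It was present in 13 of the 32 promoters of these 28 genes, which belong to 12 genes, against 3.44% of all 32851 promoters of the same length. A match describes letters only, and its absence from this window says nothing about binding. Among the members whose differences were clearest in the CD45-negative fraction, Ifit3 and Ifitm3 have an entry and each holds 2 core matches. In the CD45-positive fraction the same holds for Oas1a, whose 2 matches overlap, while Xaf1 has no match. Isg15 was added after its sequence was seen, for its 3 overlapping matches. Stretches run 5′ to 3′ on the gene's strand and end at most 30 bases after the start, with core matches in capitals.
Ifit3 (chr19:34583363-34583548, plus strand): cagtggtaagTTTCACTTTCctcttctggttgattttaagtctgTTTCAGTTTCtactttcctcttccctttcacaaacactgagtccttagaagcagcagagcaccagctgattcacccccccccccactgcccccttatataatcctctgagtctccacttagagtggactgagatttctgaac
Ifitm3 (chr7:141010715-141010874, minus strand): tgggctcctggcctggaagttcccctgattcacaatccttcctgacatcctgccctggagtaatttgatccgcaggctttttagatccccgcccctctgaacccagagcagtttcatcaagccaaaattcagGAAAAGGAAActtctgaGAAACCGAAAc
Isg15 (chr4:156200799-156200948, minus strand): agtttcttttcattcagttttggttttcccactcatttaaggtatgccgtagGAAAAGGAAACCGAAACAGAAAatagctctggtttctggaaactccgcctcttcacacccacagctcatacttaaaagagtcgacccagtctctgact
Oas1a (chr5:120907506-120907655, minus strand): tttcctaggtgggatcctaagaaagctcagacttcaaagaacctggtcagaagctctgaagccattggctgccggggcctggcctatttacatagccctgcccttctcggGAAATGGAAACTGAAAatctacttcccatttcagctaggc
Xaf1 (chr11:72301499-72301648, plus strand): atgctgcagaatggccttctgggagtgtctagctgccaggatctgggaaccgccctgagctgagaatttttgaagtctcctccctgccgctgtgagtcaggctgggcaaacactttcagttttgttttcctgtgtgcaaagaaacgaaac

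The matches of Ifit3 begin 156 and 122 bases before the start, those of Isg15 78, 72 and 66 bases before, and those of Oas1a 20 and 14 bases before. In Ifitm3 they begin 2 and 19 bases after it. Those of Ifit3 read as the reverse complement on the printed strand, and the others read directly.

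Levels were deposited as FPKM, fragments scaled to gene length and library size, which allows levels of different genes to be compared within a fraction. Read totals are not part of such values, and absolute depth is unknown. Relative depth, read from the steps between low values, ran from 0.547 to 1.79 in the CD45-negative and from 0.629 to 1.71 in the CD45-positive libraries. The JQ1 libraries of the CD45-negative fraction were at 0.554 and 0.653 and the vehicle libraries at 1.79 and 1.13, so depth moved with that comparison. Ptprc, which encodes CD45, was 1.25 to 8.65 FPKM in CD45-negative and 38.6 to 73.6 FPKM in CD45-positive libraries. Each fraction had its defining markers: fibroblast genes summed to 1152 to 2706 FPKM and epithelial genes to 298 to 889 FPKM in CD45-negative cells, and macrophage and monocyte genes to 12093 to 19745 FPKM in CD45-positive cells. Macrophage and monocyte genes still summed to 703 to 3153 FPKM in CD45-negative cells, above the fibroblast sum in JQ1 with paclitaxel replicate 2 and JQ1 with anti-PD-L1 replicate 1.

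In CD45-negative cells the members spanned 3 orders of magnitude by mean FPKM. Ifitm3, which blocks fusion of viral and endosomal membranes, was highest with a mean of 487 FPKM over the 12 libraries. Bst2, or tetherin, which holds budding particles at the membrane, followed with 108 FPKM, and Isg15, a ubiquitin-like modifier, with 32.2 FPKM. Of the 37 members 9 reached a mean of 10 FPKM, 31 reached 1 FPKM, and Mx1 was lowest at 0.356 FPKM. A member was tested where at least 2 libraries of the fraction had 1 FPKM, which left out Mx1 alone, so 36 were tested among 10780 genes. All differences below are on the log2(FPKM + 1) scale, ± SE, from 1 limma fit of the 5 groups, with Benjamini-Hochberg adjusted p over all genes and a threshold of 0.05. This scale understates the change of genes near or below 1 FPKM.

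The first question was what BET inhibition alone did to these genes. In CD45-negative cells 9 of 36 members fell under JQ1 and none rose, while 9.68% of all genes tested were called lower and 5.09% higher. The members that fell were Epsti1, Ifit3, Ifi44, Usp18, Ifitm3, Bst2, Isg15, Xaf1 and Oasl2. The median difference of the members was −0.47, beside −0.05 over all genes tested. With paclitaxel given as well, 11 members were lower than in vehicle and none higher, beside 12.3% of all genes called lower and 5.29% higher, and the median was −0.42. These 11 were Usp18, Ifit3, Epsti1, Ifi44, Oas1a, Rtp4, Ifitm3, Bst2, Parp12, Mx2 and Oasl2. Both comparisons use the same 2 vehicle libraries. Leaving out libraries mattered: the JQ1 count was 5 without vehicle replicate 1, 5 without vehicle replicate 2 and 4 without JQ1 replicate 1, and the count for JQ1 with paclitaxel was 7, 5 and 5 without vehicle replicate 1, vehicle replicate 2 and JQ1 with paclitaxel replicate 1. Bst2, Epsti1, Ifit3 and Ifitm3 were called in the JQ1 comparison without each library in turn. With libraries averaged by mouse code the counts were 0 and 4, and with relative depth as a covariate the JQ1 count was 3.

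The second question was what the antibody added to JQ1. Comparing the mean of the 2 groups with anti-PD-L1 with the mean of the 2 JQ1 groups without it, 26 of 36 members rose in CD45-negative cells and none fell, while 14% of all genes tested were called higher and 10.9% lower. The median difference was 0.64, beside 0.03 over all genes. This comparison shares the JQ1 and JQ1 with paclitaxel libraries with those above, so low values in these libraries enter both. Members rose both without paclitaxel and with it: 10 members rose when anti-PD-L1 was added to JQ1 (3.41% of all genes higher, 2.42% lower) and 19 when it was added to JQ1 with paclitaxel (9.09% of all genes higher, 6.79% lower). The latter step compares 3 libraries of 3 mouse codes with 3 libraries of 3 others, and 15 of the 36 members were called when libraries were averaged by mouse code. It fell to 12 without 3-drug replicate 1 and to 11 without JQ1 with paclitaxel replicate 1. The step on JQ1 alone, of 2 against 2 libraries, gave 1, 4, 2 and 1 calls without JQ1 replicate 1, JQ1 replicate 2, JQ1 with anti-PD-L1 replicate 1 and replicate 2, and none with libraries averaged by mouse code. The joint count was 21 to 28 without single libraries, 12 with libraries averaged by mouse code and 14 with the summed pan-leukocyte markers as a covariate. Epsti1, Ifi44, Ifit1, Ifit3, Ifitm3, Isg15, Oasl2, Rtp4, Usp18, Xaf1 and Zbp1 were called in every one of these and the other settings tried.

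**Figure D1:**
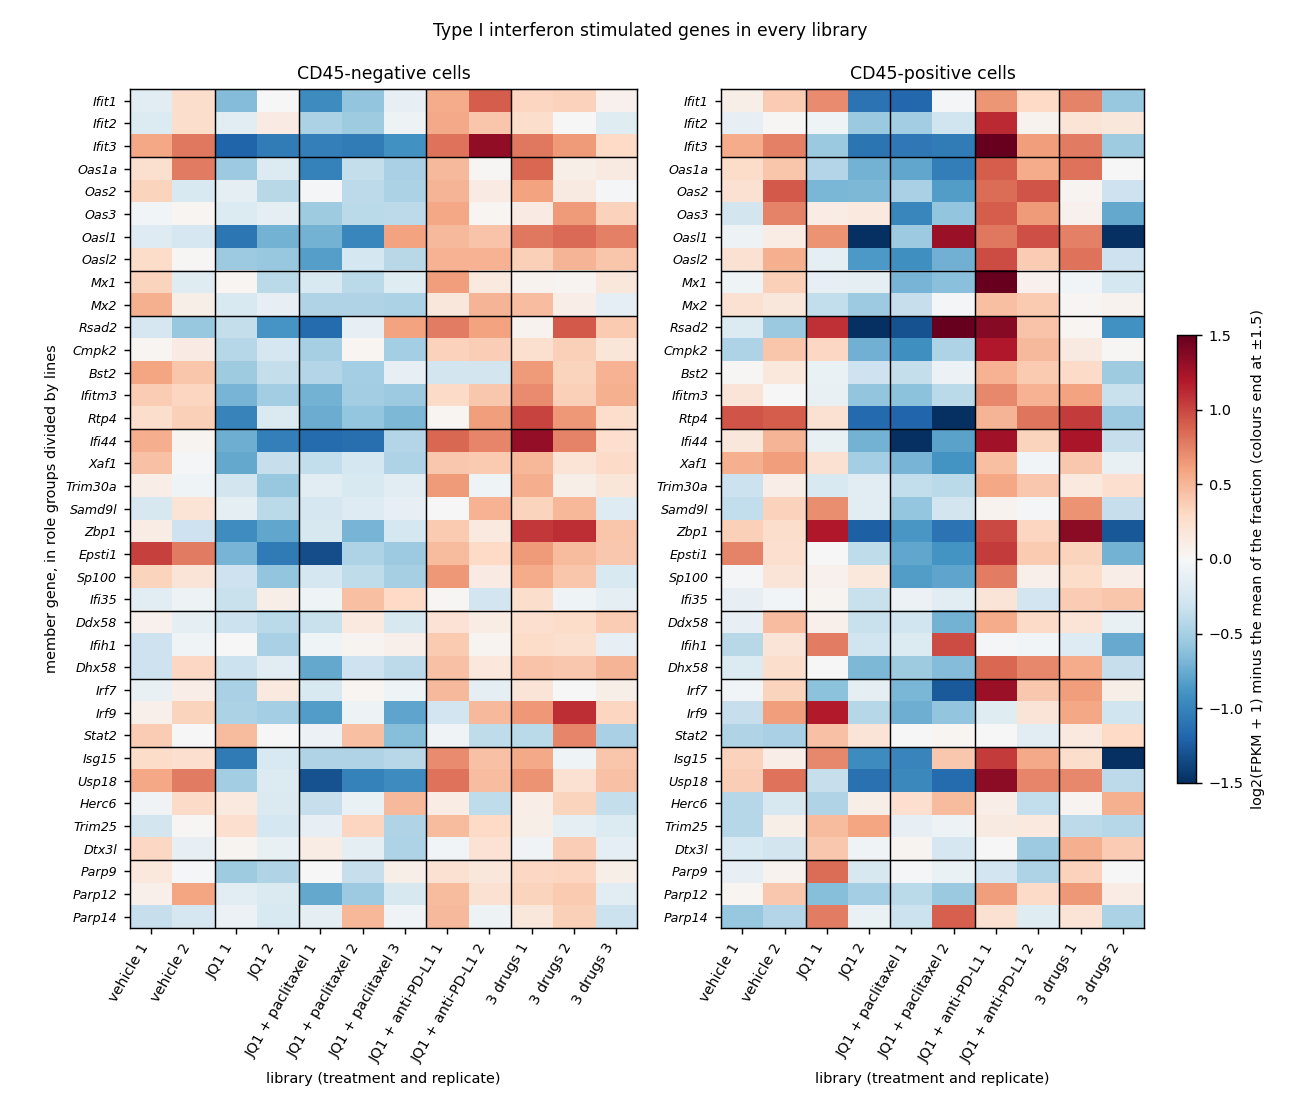
Level of each of the 37 members (rows, in 9 role groups divided by lines) in each library (columns, in treatment groups divided by lines) of both fractions, as log2(FPKM + 1) minus the mean of the fraction. In CD45-negative cells most rows are low in the 5 libraries of JQ1 and JQ1 with paclitaxel and high in the 5 libraries with anti-PD-L1, while in CD45-positive cells libraries of 1 treatment differ from each other.

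The groups that received anti-PD-L1 were set against vehicle too. No member passed the threshold of the limma test in JQ1 with anti-PD-L1, where 3 had an unadjusted p under 0.05 and 0.25% of all genes were called. None passed with all 3 drugs either, where again 3 had an unadjusted p under 0.05 and 1.63% of all genes were called. The medians were 0.23 and 0.18. A missed threshold does not show that levels were equal: the 95% interval of Ifit3 ran from −0.11 to 0.88 in the first and from −0.56 to 0.34 in the second comparison. The closest to the threshold were Bst2 in JQ1 with anti-PD-L1 (−0.78 ± 0.17, adjusted p = 0.0622) and Zbp1 with all 3 drugs (0.96 ± 0.23, adjusted p = 0.0553).

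Among the IFIT proteins, which bind foreign 5′ ends of RNA, Ifit3 changed most. It was 2.86 and 3.49 FPKM in vehicle, 0.124 and 0.245 in JQ1, 0.268, 0.251 and 0.377 in JQ1 with paclitaxel, 3.54 and 5.48 in JQ1 with anti-PD-L1, and 3.47, 3.04 and 2.19 with all 3 drugs. The 5 libraries of JQ1 and JQ1 with paclitaxel all lay far below the other 7, with a gap from 0.377 to 2.19 FPKM. The JQ1 mean was 0.0582 of the vehicle mean (−1.81 ± 0.23, adjusted p = 0.000795), and the rise with anti-PD-L1 was 1.88 ± 0.15 (adjusted p = 1.7e-05), the smallest adjusted p of any member. Reads can be shared with its near-identical copy Ifit3b, and no source used here says how they were assigned. The sum of both genes was 3.88 to 4.19 FPKM in vehicle, 0.28 to 0.657 in JQ1, 0.334 to 0.534 in JQ1 with paclitaxel, 5.36 to 7.33 in JQ1 with anti-PD-L1 and 3.18 to 5.36 with all 3 drugs, so the sum separated the same 5 libraries from the other 7. Ifit1 was 2.43 and 3.62 FPKM in vehicle, 1.44 and 2.86 in JQ1, 0.995, 1.55 and 2.52 in JQ1 with paclitaxel, 4.64 and 6.21 in JQ1 with anti-PD-L1, and 3.81, 3.87 and 3.02 with all 3 drugs. Its groups overlapped between vehicle and JQ1 (−0.37 ± 0.29, adjusted p = 0.407), and it rose with anti-PD-L1 (0.93 ± 0.19, adjusted p = 0.00421). Ifit2 had a difference of 0.45 ± 0.16 there and missed the threshold (adjusted p = 0.0531).

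In the OAS family, which makes the 2′-5′ oligoadenylates that activate RNase L or, as OASL proteins, acts without that activity, all 5 members rose with anti-PD-L1. Oasl2 was 5.48 and 4.43 FPKM in vehicle, 2.65 and 2.6 in JQ1, 2.01, 3.47 and 2.99 in JQ1 with paclitaxel, 6.7 and 6.68 in JQ1 with anti-PD-L1, and 5.84, 6.6 and 6.15 with all 3 drugs. No library with anti-PD-L1 overlapped any of the other 7. It fell in JQ1 (−0.71 ± 0.20, adjusted p = 0.0353) and in JQ1 with paclitaxel (−0.65 ± 0.19, adjusted p = 0.0302), and the rise was 1.01 ± 0.13, adjusted p = 0.000344. Oasl1 was 16.3 and 15.6 FPKM in vehicle, 8.36 and 11.1 in JQ1, 11.1, 9.09 and 29.1 in JQ1 with paclitaxel, 26.7 and 25.7 in JQ1 with anti-PD-L1, and 33.4, 34.7 and 32.4 with all 3 drugs. JQ1 with paclitaxel replicate 3 stood within the range of the anti-PD-L1 groups, and the rise of Oasl1 was 1.26 ± 0.24, adjusted p = 0.00271. Oas3 stayed low, at 0.68 and 0.766 FPKM in vehicle, 0.50 and 0.566 in JQ1, 0.191, 0.304 and 0.316 in JQ1 with paclitaxel, 1.58 and 0.764 in JQ1 with anti-PD-L1, and 0.883, 1.68 and 1.19 with all 3 drugs, and rose by 0.65 ± 0.15 (adjusted p = 0.00819). Oas1a fell in JQ1 with paclitaxel (−1.13 ± 0.28, adjusted p = 0.0169) and rose with anti-PD-L1 (0.80 ± 0.20, adjusted p = 0.0112), with reads possibly shared with Oas1g. Oas2 had its highest value at 1.17 FPKM and rose by 0.57 ± 0.18 (adjusted p = 0.0357).

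The Mx GTPases, which assemble on viral nucleocapsids, were low in CD45-negative cells. Mx2 was 1.39 and 0.76 FPKM in vehicle, 0.403 and 0.514 in JQ1, 0.206, 0.204 and 0.189 in JQ1 with paclitaxel, 0.859 and 1.36 in JQ1 with anti-PD-L1, and 1.27, 0.775 and 0.503 with all 3 drugs. It fell in JQ1 with paclitaxel (−0.77 ± 0.22, adjusted p = 0.029), where all 3 libraries lay below both vehicle libraries, and rose with anti-PD-L1 (0.56 ± 0.15, adjusted p = 0.0185). Mx1 ranged from 0 to 1.05 FPKM and was not tested.

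The membrane and metabolic effectors held the most abundant members, and all 5 rose with anti-PD-L1. Ifitm3 was 596 and 571 FPKM in vehicle, 282 and 318 in JQ1, 279, 319 and 313 in JQ1 with paclitaxel, 559 and 607 in JQ1 with anti-PD-L1, and 749.9, 586 and 660.0 with all 3 drugs. The 5 libraries of JQ1 and JQ1 with paclitaxel all lay below every one of the other 7. Its JQ1 mean was 0.514 of the vehicle mean (−0.96 ± 0.16, adjusted p = 0.0035), and the difference was −0.94 ± 0.15 with paclitaxel (adjusted p = 0.0017) and 1.04 ± 0.11 for the antibody (adjusted p = 0.000115). Bst2 was 156 and 138 FPKM in vehicle, 70.7 and 80.1 in JQ1, 75.9, 72 and 94.5 in JQ1 with paclitaxel, 84.5 and 85.1 in JQ1 with anti-PD-L1, and 160.4, 130.5 and 149 with all 3 drugs. Unlike Ifitm3, it was as low in JQ1 with anti-PD-L1 as in the groups without antibody, and only the 3-drug group overlapped vehicle. It fell by 0.95 in JQ1 (SE 0.17, adjusted p = 0.00387). Its antibody step was 0.86 ± 0.14 on JQ1 with paclitaxel (adjusted p = 0.00242) and 0.17 ± 0.17 on JQ1 (adjusted p = 0.581). Rtp4, a chaperone that restrains RNA viruses, was 3.72 and 4.05 FPKM in vehicle, 0.968 and 2.37 in JQ1, 1.35, 1.63 and 1.47 in JQ1 with paclitaxel, 3.0 and 5.04 in JQ1 with anti-PD-L1, and 6.92, 5.18 and 3.71 with all 3 drugs. All JQ1 and JQ1 with paclitaxel libraries lay below both vehicle libraries, with a call for JQ1 with paclitaxel (−0.98 ± 0.27, adjusted p = 0.0265) and not for JQ1 (−0.92 ± 0.30, adjusted p = 0.0528). Cmpk2, a mitochondrial nucleotide kinase, and its neighbour Rsad2, or viperin, rose with anti-PD-L1 by 0.64 ± 0.13 (adjusted p = 0.00481) and 0.99 ± 0.28 (adjusted p = 0.022).

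**Figure D2:**
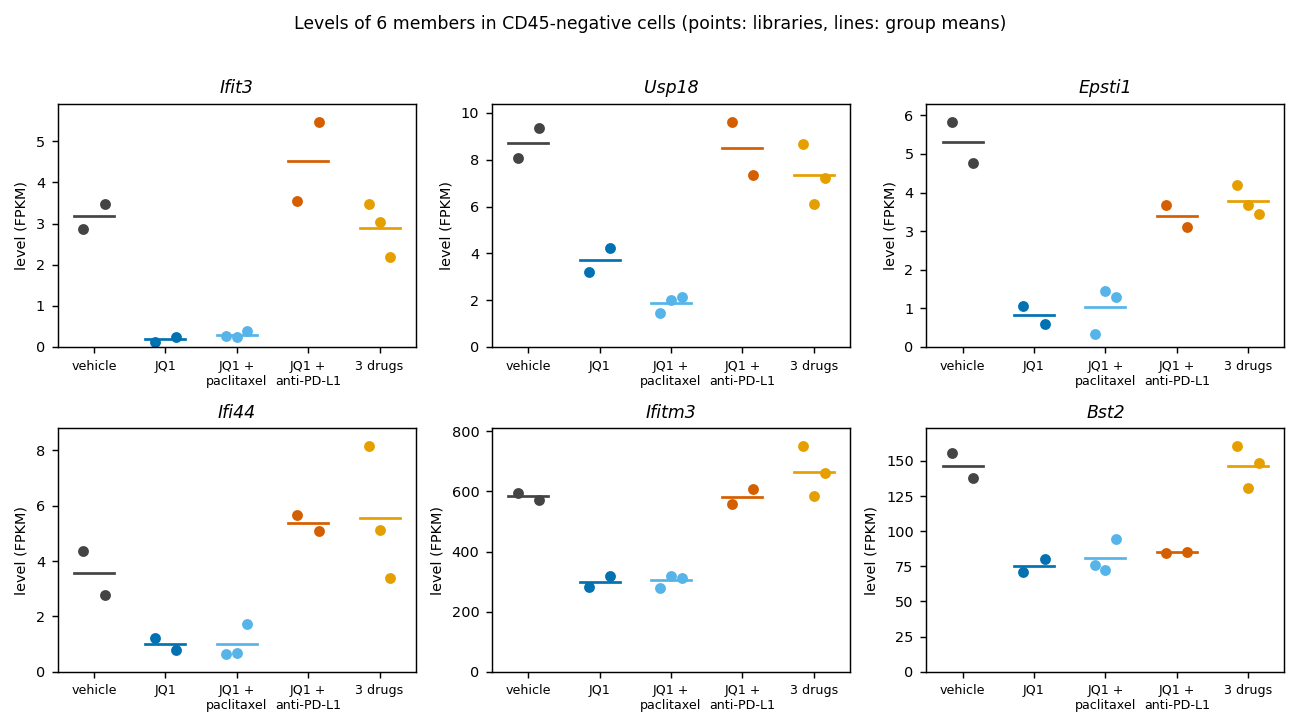
FPKM of 6 members in each CD45-negative library (points) with the group mean (lines), by treatment, each axis starting at 0. Ifit3 and Ifitm3 separate the JQ1 and JQ1 with paclitaxel libraries from the other 7, and Bst2 stays low in JQ1 with anti-PD-L1 at 84.5 and 85.1 FPKM.

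In the group of other antiviral and cell death effectors 6 of 8 members rose with anti-PD-L1. Ifi44, a GTP-binding protein, was 4.36 and 2.77 FPKM in vehicle, 1.22 and 0.797 in JQ1, 0.655, 0.672 and 1.71 in JQ1 with paclitaxel, 5.65 and 5.1 in JQ1 with anti-PD-L1, and 8.14, 5.13 and 3.38 with all 3 drugs. The JQ1 and JQ1 with paclitaxel libraries all lay below every other library (−1.17 ± 0.33, adjusted p = 0.0343 for JQ1), and the rise was 1.68 ± 0.21, adjusted p = 0.000321. Epsti1, first described in stroma-stimulated breast epithelium, was 5.84 and 4.78 FPKM in vehicle, 1.07 and 0.603 in JQ1, 0.339, 1.44 and 1.3 in JQ1 with paclitaxel, 3.67 and 3.12 in JQ1 with anti-PD-L1, and 4.21, 3.68 and 3.44 with all 3 drugs. Here the antibody groups lay between JQ1 and vehicle with no overlap on either side, and the JQ1 mean was 0.157 of the vehicle mean (−1.79 ± 0.27, adjusted p = 0.00194). Zbp1, a sensor of Z-form nucleic acids that can start necroptosis, was 19.3 and 14.2 FPKM in vehicle, 8.86 and 9.98 in JQ1, 14.9, 10.6 and 14.7 in JQ1 with paclitaxel, 23.7 and 19.7 in JQ1 with anti-PD-L1, and 38.1, 39.5 and 24 with all 3 drugs. Every antibody library lay above both vehicle libraries, and the rise was 1.19 ± 0.16, adjusted p = 0.000418. Xaf1, a pro-apoptotic antagonist of XIAP, fell in JQ1 (−0.77 ± 0.22, adjusted p = 0.0337) and rose with anti-PD-L1 (0.82 ± 0.14, adjusted p = 0.00154). Sp100 (0.73 ± 0.17) and Trim30a (0.58 ± 0.16) rose as well, and Samd9l (0.47 ± 0.17, adjusted p = 0.0664) and Ifi35 (−0.11 ± 0.14, adjusted p = 0.6) did not pass the threshold.

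Of the cytosolic RNA sensors, Dhx58 (LGP2) was 3.75 and 6.34 FPKM in vehicle, 3.71 and 4.29 in JQ1, 2.47, 3.76 and 3.5 in JQ1 with paclitaxel, 6.97 and 5.59 in JQ1 with anti-PD-L1, and 6.93, 6.81 and 7.42 with all 3 drugs. It rose with anti-PD-L1 (0.74 ± 0.15, adjusted p = 0.00396), as did Ddx58, which encodes RIG-I (0.48 ± 0.13, adjusted p = 0.0142). Ddx58 was 4.53 and 3.79 FPKM in vehicle, 3.24 and 2.99 in JQ1, 3.19, 4.83 and 3.47 in JQ1 with paclitaxel, 5.14 and 4.71 in JQ1 with anti-PD-L1, and 5.27, 5.39 and 5.86 with all 3 drugs. For Ifih1, which encodes MDA5, the difference was 0.28 ± 0.15 (adjusted p = 0.178, 95% interval −0.04 to 0.61). No sensor was called in JQ1 or in JQ1 with paclitaxel against vehicle.

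Of the 3 transcription factors 1 was called, and only for the antibody. Irf9, the DNA-binding partner of STAT2, was 4.3 and 5.38 FPKM in vehicle, 2.64 and 2.54 in JQ1, 1.82, 3.81 and 1.91 in JQ1 with paclitaxel, 3.14 and 6.07 in JQ1 with anti-PD-L1, and 6.95, 9.85 and 5.29 with all 3 drugs. Each JQ1 library lay below both vehicle libraries (−0.70 ± 0.32, adjusted p = 0.164), without a call, and Irf9 rose with anti-PD-L1 (0.93 ± 0.21, adjusted p = 0.00703). Stat2 and Irf7, the amplifier of interferon alpha genes, were not called there, with 95% intervals of −0.77 to 0.36 and −0.07 to 0.58.

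In the ISG15 and ubiquitin group the conjugation modifier and its protease changed, and the ubiquitin ligases were not called. Usp18, which removes ISG15 and restrains the interferon receptor, was 8.07 and 9.37 FPKM in vehicle, 3.21 and 4.24 in JQ1, 1.44, 2.0 and 2.15 in JQ1 with paclitaxel, 9.62 and 7.36 in JQ1 with anti-PD-L1, and 8.67, 6.1 and 7.21 with all 3 drugs. The 3 libraries of JQ1 with paclitaxel were the lowest, both JQ1 libraries followed, and the other 7 libraries all lay above these. The difference was −1.05 ± 0.22 in JQ1 (adjusted p = 0.00864), −1.77 ± 0.20 in JQ1 with paclitaxel (adjusted p = 0.00023) and 1.27 ± 0.14 for the antibody (adjusted p = 0.00017). Isg15 was 36.9 and 36.2 FPKM in vehicle, 14 and 25.7 in JQ1, 22, 21.8 and 22.5 in JQ1 with paclitaxel, 50.2 and 41.6 in JQ1 with anti-PD-L1, and 45.4, 28.9 and 40.8 with all 3 drugs. It fell in JQ1 (−0.91 ± 0.25, adjusted p = 0.0312) and rose with anti-PD-L1 (0.98 ± 0.16, adjusted p = 0.00132). For the ligases the antibody step was −0.04 ± 0.20 for Herc6, the mouse ISG15 ligase, 0.19 ± 0.17 for Trim25, which ubiquitinates RIG-I, and 0.17 ± 0.16 for Dtx3l, with 95% intervals of −0.47 to 0.38, −0.17 to 0.56 and −0.18 to 0.52.

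Among the ADP-ribosyltransferase relatives, Parp12 was 11.4 and 16.7 FPKM in vehicle, 9.56 and 9.11 in JQ1, 5.9, 7.07 and 8.95 in JQ1 with paclitaxel, 15.4 and 12.9 in JQ1 with anti-PD-L1, and 13.8, 14.5 and 9.53 with all 3 drugs. It fell in JQ1 with paclitaxel (−0.85 ± 0.22, adjusted p = 0.0204) and rose with anti-PD-L1 (0.63 ± 0.16, adjusted p = 0.0116). Parp9, the partner of Dtx3l, was 5.75 and 4.99 FPKM in vehicle, 3.17 and 3.41 in JQ1, 5.0, 3.75 and 5.45 in JQ1 with paclitaxel, 6.06 and 5.79 in JQ1 with anti-PD-L1, and 6.51, 6.56 and 5.43 with all 3 drugs, and rose by 0.51 ± 0.12 (adjusted p = 0.00995) with the JQ1 libraries lowest. Parp14 had a step of 0.16 ± 0.18, adjusted p = 0.554.

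**Figure D3:**
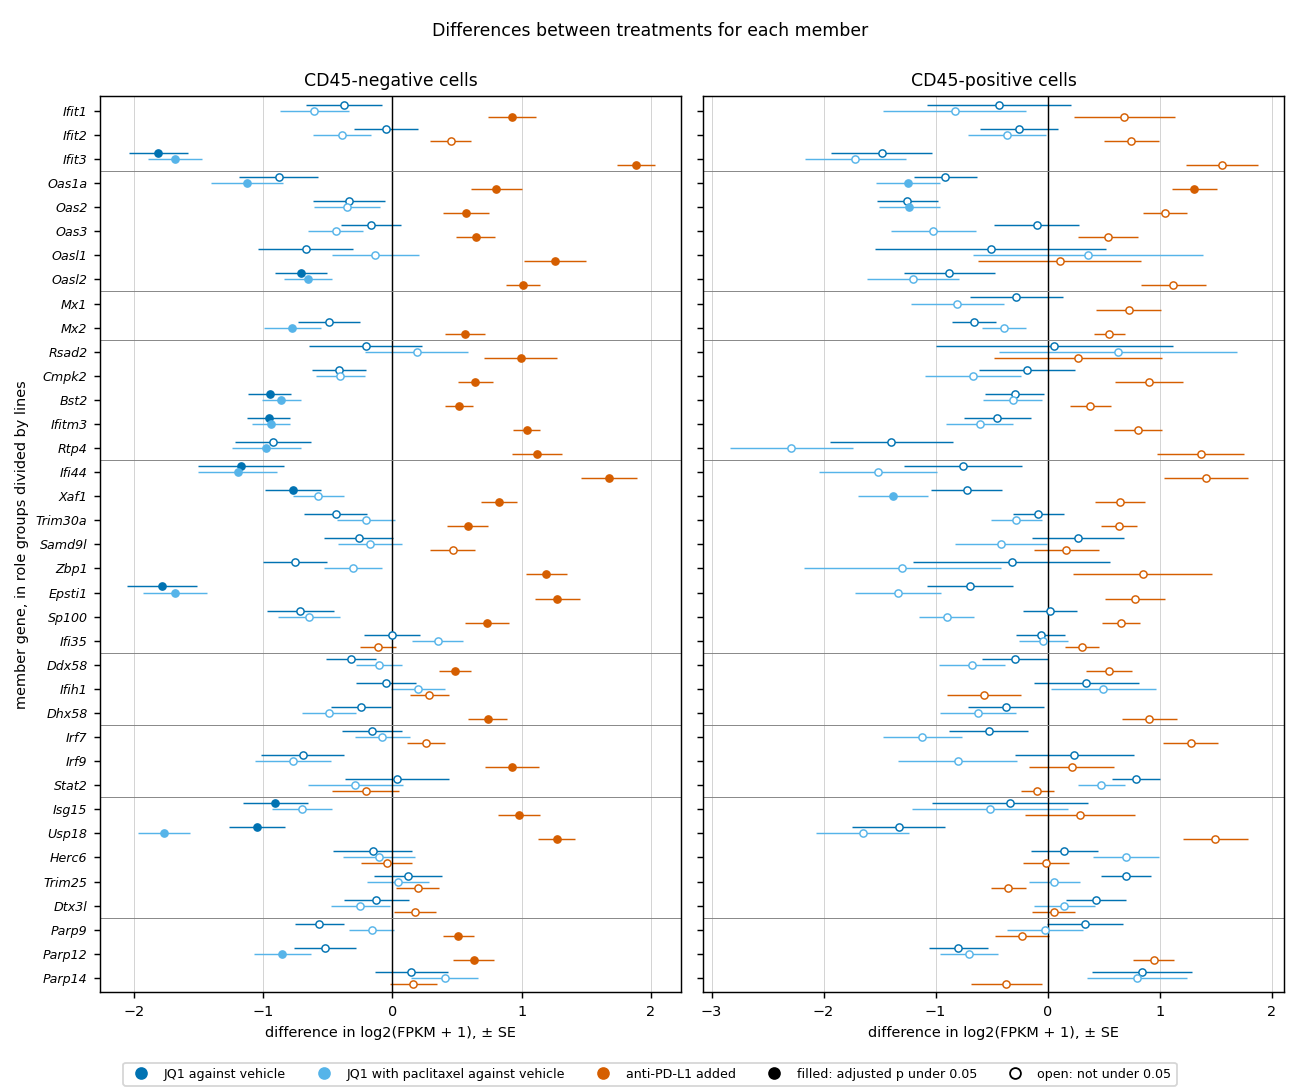
Difference in log2(FPKM + 1) ± SE for each member in 3 comparisons, in both fractions; filled points have an adjusted p under 0.05. In CD45-negative cells 9, 11 and 26 members are filled for JQ1, JQ1 with paclitaxel and anti-PD-L1 added, and in CD45-positive cells 0, 3 and 1.

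Paclitaxel, compared in the same way across the groups with and without it, changed 1 of 36 members, Bst2 (0.43 ± 0.11, adjusted p = 0.0475), while 2.19% of all genes were called higher and 1.37% lower. Among the 12 libraries left out in turn, the call held only without JQ1 with paclitaxel replicate 2. The median over the members was −0.01. Added to JQ1 alone, paclitaxel changed no member by limma, with 2 at an unadjusted p under 0.05 and 0.213% of all genes called. Added to JQ1 with anti-PD-L1 it raised Bst2 alone (0.78 ± 0.15, adjusted p = 0.0413), beside 0.594% of all genes called higher and 0.408% lower. That call held in 4 of the 12 fits without a library, those without either vehicle library or without JQ1 with paclitaxel replicate 2 or 3, and was lost without a filter and with libraries averaged by mouse code (adjusted p = 0.406). Whether the antibody step differed with and without paclitaxel was tested as an interaction, for which limma called no member, 1 had an unadjusted p under 0.05 and 0.00928% of all genes were called. That member was Bst2 (0.68 ± 0.22, adjusted p = 0.535).

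Several other values moved with the same groups. Hexim1, which rises when BET proteins are inhibited, was 0.768 and 1.38 FPKM in vehicle, 4.08 and 3.34 in JQ1, 3.67, 4.7 and 3.24 in JQ1 with paclitaxel, 2.02 and 1.15 in JQ1 with anti-PD-L1, and 1.5, 0.978 and 1.32 with all 3 drugs. It rose in JQ1 (1.20 ± 0.24, adjusted p = 0.0076) and in JQ1 with paclitaxel (1.24 ± 0.22, adjusted p = 0.00309) and fell with anti-PD-L1 (−0.99 ± 0.16, adjusted p = 0.00103), so the libraries with low members were those with high Hexim1, and both groups with antibody had Hexim1 near vehicle in this fraction although they too are labelled as given JQ1. In CD45-positive cells Hexim1 was 0.993 and 1.99 FPKM in vehicle, 2.84 and 5.75 in JQ1, and 4.8 and 4.74 in JQ1 with paclitaxel. It was 4.13 and 1.99 FPKM there in JQ1 with anti-PD-L1, and 1.81 and 3.93 with all 3 drugs. The higher library of each antibody group thus lay within the range of JQ1, and the lower near the higher vehicle library. Ptprc was 1.25 and 2.65 FPKM in vehicle, 4.24 and 2.41 in JQ1, 2.67, 7.34 and 2.63 in JQ1 with paclitaxel, 8.05 and 4.75 in JQ1 with anti-PD-L1, and 6.53, 8.65 and 3.29 with all 3 drugs. The 12 pan-leukocyte markers summed to 147 to 211 FPKM in vehicle, 146 to 202 in JQ1, 124 to 320 in JQ1 with paclitaxel, 258 to 360 in JQ1 with anti-PD-L1 and 209 to 345 with all 3 drugs. Their group means were highest in the groups with antibody, with overlap between libraries, and with this sum as a covariate the median antibody step was 0.57 in place of 0.64. Macrophage and monocyte markers summed to 703 to 1093 FPKM in vehicle, 1008 to 1455 in JQ1, 1057 to 3153 in JQ1 with paclitaxel, 1926 to 2585 in JQ1 with anti-PD-L1 and 1117 to 1719 with all 3 drugs. The 6 plasmacytoid dendritic cell markers outside the members summed to 9.81 to 13.7 FPKM in the 5 libraries of JQ1 and JQ1 with paclitaxel and to 14.2 to 24.3 FPKM in the other 7, with no overlap. Tcf4 (5.89 to 16.6 FPKM) and Runx2 (2.51 to 6.71 FPKM) made up most of that sum, while Siglech, a defining marker of these cells, reached at most 0.23 FPKM and was at 0 in 7 of the 12 libraries. Epithelial markers summed to 507 to 889 FPKM in vehicle, 298 to 357 in JQ1, 343 to 544 in JQ1 with paclitaxel, 368 to 498 in JQ1 with anti-PD-L1 and 531 to 763 with all 3 drugs. The erythroid sum was 110 to 332 FPKM in vehicle, 33.3 to 67.4 in JQ1 with anti-PD-L1 and under 6 in every other library. The part of drug exposure and of cell makeup in these differences was not tested, and in bulk samples fewer cells of a type and less RNA per cell cannot be told apart.

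**Figure D4:**
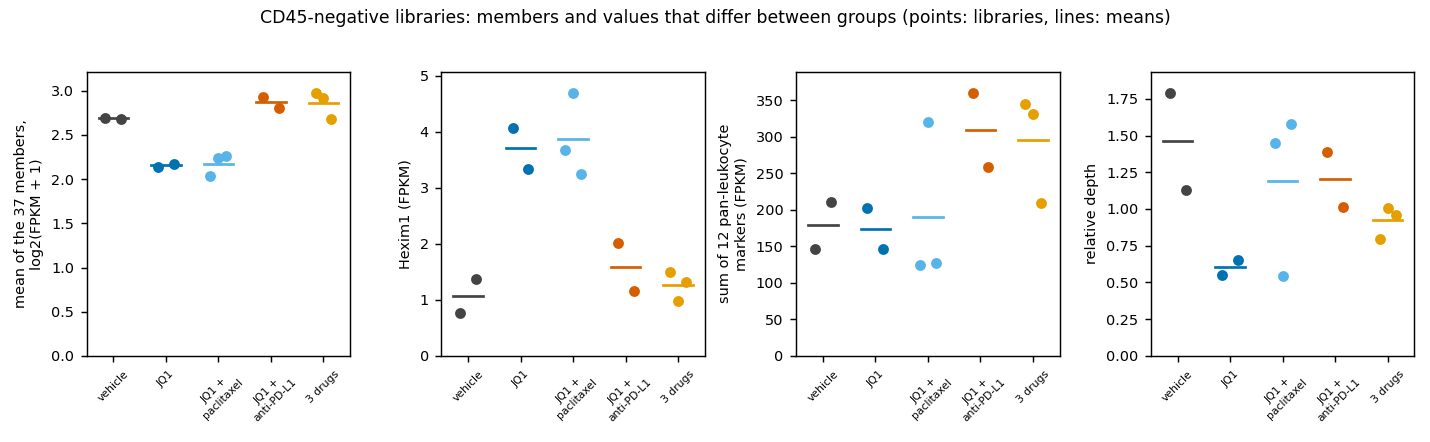
Mean of the 37 members in log2(FPKM + 1), Hexim1 in FPKM, the sum of 12 pan-leukocyte markers in FPKM and relative depth in each CD45-negative library (points, with group means as lines). The member mean is 2.03 to 2.26 in the 5 JQ1 and JQ1 with paclitaxel libraries and 2.68 to 2.98 in the other 7, the reverse of Hexim1, while leukocyte markers and depth overlap between these sets.

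Upstream genes of the pathway were taken from a list of 103 further genes, of which 66 were tested in CD45-negative cells. In JQ1 1 of them rose and 12 fell, beside 5.09% of all genes called higher and 9.68% lower. With anti-PD-L1 19 rose and 3 fell, beside 14% of all genes called higher and 10.9% lower. Against vehicle 1 was higher and 8 lower in JQ1 with paclitaxel (5.29% and 12.3% of all genes), none was called by limma in JQ1 with anti-PD-L1 (5 at an unadjusted p under 0.05, 0.25% of all genes called), and 1 was higher with all 3 drugs (1.63% of all genes called). Paclitaxel raised 3 and lowered 1 (2.19% and 1.37% of all genes). None of the 23 interferon ligand genes listed passed the filter on low values there. Ifnb1, the gene of interferon beta, was 0.308 and 0.253 FPKM in vehicle, 0.249 and 0 in JQ1, 0, 0 and 0 in JQ1 with paclitaxel, 0 and 0.815 in JQ1 with anti-PD-L1, and 0.176, 0.68 and 0.142 with all 3 drugs, listed at 0 in 5 of the 12 libraries. The receptor genes Ifnar1 and Ifnar2 were not called in JQ1 (0.54 ± 0.24 and −0.34 ± 0.16) or with anti-PD-L1 (−0.23 ± 0.16 and 0.25 ± 0.10).

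Among the listed genes that passed, Isg20, an interferon-induced exonuclease, was 72.9 and 79.2 FPKM in vehicle, 30.0 and 29.4 in JQ1, 31.7, 32.3 and 25.5 in JQ1 with paclitaxel, 38.9 and 56.6 in JQ1 with anti-PD-L1, and 69.5, 58.3 and 71 with all 3 drugs. It fell in JQ1 (−1.33 ± 0.19, adjusted p = 0.00146) and rose with the antibody (0.89 ± 0.12, adjusted p = 0.000514). Tmem173, which encodes the DNA-sensing adaptor STING, was 13.3 and 20.1 FPKM in vehicle, 6.3 and 7.98 in JQ1, 7.73, 8.65 and 11.3 in JQ1 with paclitaxel, 16.8 and 16.1 in JQ1 with anti-PD-L1, and 17.5, 16.5 and 17.8 with all 3 drugs. Its JQ1 and JQ1 with paclitaxel libraries were the 5 lowest (−1.10 ± 0.21, adjusted p = 0.00629 for JQ1), and the antibody step was 0.98 ± 0.14, adjusted p = 0.000544. Phf11d (−1.33 ± 0.28 and 1.31 ± 0.18), Ifi27 (−1.06 ± 0.19 and 0.69 ± 0.12) and Nmi (−1.31 ± 0.29 and 1.18 ± 0.19) likewise fell in JQ1 and rose with anti-PD-L1, in that order. These 2 comparisons share the JQ1 libraries.

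In CD45-positive cells all 37 members were tested among 10340 genes. Ifitm3 was again highest (524 FPKM on average), followed by Oasl1 (84.5 FPKM), Bst2 (63.8 FPKM) and Irf7 (57.3 FPKM). No member passed the limma threshold in JQ1, where 10 had an unadjusted p under 0.05 and 1.04% of all genes were called. In JQ1 with paclitaxel 3 members fell and none rose, beside 3.26% of all genes called lower and 1.58% higher, with 16 at an unadjusted p under 0.05 and a median of −0.66. With anti-PD-L1 1 member rose (0.484% of all genes higher, 0.348% lower), 20 had an unadjusted p under 0.05, and the median was 0.65, beside 0.64 in CD45-negative cells. The fractions were tabulated apart and were not tested against each other.

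The members called there belong to the OAS family and the effectors. Oas1a was 22.2 and 24.6 FPKM in vehicle, 13.2 and 10.8 in JQ1, 10.2 and 8.4 in JQ1 with paclitaxel, 35.1 and 27.4 in JQ1 with anti-PD-L1, and 32.8 and 18.2 with all 3 drugs. Both libraries of JQ1 and both of JQ1 with paclitaxel lay below all others (−1.25 ± 0.28, adjusted p = 0.0434 for JQ1 with paclitaxel), and Oas1a rose with anti-PD-L1 (1.31 ± 0.20, adjusted p = 0.0433). Oas2 was 1.31 and 2.75 FPKM in vehicle, 0.231 and 0.241 in JQ1, 0.415 and 0.105 in JQ1 with paclitaxel, 2.54 and 2.8 in JQ1 with anti-PD-L1, and 1.03 and 0.595 with all 3 drugs. It fell in JQ1 with paclitaxel (−1.24 ± 0.27, adjusted p = 0.0403), and the JQ1 difference was of like size without a call (−1.25 ± 0.27, adjusted p = 0.0714). Xaf1 was 3.21 and 3.5 FPKM in vehicle, 2.4 and 1.04 in JQ1, 0.797 and 0.56 in JQ1 with paclitaxel, 2.96 and 1.83 in JQ1 with anti-PD-L1, and 2.85 and 1.7 with all 3 drugs, and fell in JQ1 with paclitaxel (−1.38 ± 0.31, adjusted p = 0.0434). These calls rest on few libraries. Without single libraries the count for JQ1 with paclitaxel was 0 (vehicle replicate 1 or 2, JQ1 with paclitaxel replicate 1 or 2, JQ1 with anti-PD-L1 replicate 1 or 2), 5 (JQ1 replicate 1 or 2) or 7 (3-drug replicate 1 or 2), and 11 when only the groups compared were fitted. The count for the antibody was 0 without any single library other than 3-drug replicate 2, without which it was 6.

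Some genes that were called in CD45-negative cells did not pass the threshold here. Ifit3 was 3.65 and 4.38 FPKM in vehicle, 1.16 and 0.485 in JQ1, 0.515 and 0.529 in JQ1 with paclitaxel, 8.51 and 3.9 in JQ1 with anti-PD-L1, and 4.46 and 1.2 with all 3 drugs. Its 4 JQ1 and JQ1 with paclitaxel libraries were the lowest, but 3-drug replicate 2 was close to JQ1 replicate 1, and the antibody step was 1.56 ± 0.32, adjusted p = 0.0619. Usp18 was 9.27 and 12.9 FPKM in vehicle, 5.24 and 2.65 in JQ1, 3.08 and 2.57 in JQ1 with paclitaxel, 19.1 and 12.2 in JQ1 with anti-PD-L1, and 12.1 and 5.06 with all 3 drugs, with 3-drug replicate 2 within the range of JQ1 (1.5 ± 0.29, adjusted p = 0.0562 for the antibody). Irf7, not called in CD45-negative cells, was 49.5 and 64.7 FPKM in vehicle, 33.1 and 45.9 in JQ1, 31.4 and 20.7 in JQ1 with paclitaxel, 126 and 67.7 in JQ1 with anti-PD-L1, and 79.2 and 54.1 with all 3 drugs. No antibody library overlapped the 4 libraries of JQ1 and JQ1 with paclitaxel, while 3-drug replicate 2 lay between the vehicle libraries. The antibody step of Irf7 was 1.28 ± 0.25, adjusted p = 0.0555. Parp12 was 7.75 and 10.3 FPKM in vehicle, 4.48 and 5.01 in JQ1, 5.45 and 4.83 in JQ1 with paclitaxel, 12.2 and 9.41 in JQ1 with anti-PD-L1, and 12.5 and 8.27 with all 3 drugs. Its step was 0.95 ± 0.18, adjusted p = 0.0555, again with no overlap with JQ1 or JQ1 with paclitaxel. JQ1 with anti-PD-L1 replicate 2 and 3-drug replicate 2 lay between the vehicle libraries. Rtp4 reached −2.29 ± 0.55 in JQ1 with paclitaxel (adjusted p = 0.05 after rounding, and not called).

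Other groups were given by their most abundant member where none was called. Dhx58 was 7.98 and 11.4 FPKM in vehicle, 9.31 and 5.47 in JQ1, 6.14 and 5.59 in JQ1 with paclitaxel, 17.7 and 16 in JQ1 with anti-PD-L1, and 14.1 and 7.14 with all 3 drugs. Ifit2 was 2.38 and 2.75 FPKM in vehicle, 2.53 and 1.52 in JQ1, 1.58 and 1.99 in JQ1 with paclitaxel, 7.04 and 2.83 in JQ1 with anti-PD-L1, and 3.28 and 3.15 with all 3 drugs. Each library of Ifit2 with antibody lay above every other, by a narrow margin in JQ1 with anti-PD-L1 replicate 2, while for Dhx58 3-drug replicate 2 lay below JQ1 replicate 1. Ifitm3 was 568 and 500.0 FPKM in vehicle, 462 and 330.0 in JQ1, 324 and 376 in JQ1 with paclitaxel, 821 and 716 in JQ1 with anti-PD-L1, and 753 and 392 with all 3 drugs, again with 3-drug replicate 2 below JQ1 replicate 1. Isg15 was 39.5 and 33.2 FPKM in vehicle, 51.5 and 15.5 in JQ1, 15.1 and 41.1 in JQ1 with paclitaxel, 65.2 and 46.1 in JQ1 with anti-PD-L1, and 37.2 and 10.1 with all 3 drugs, with replicates far apart in JQ1, in JQ1 with paclitaxel and with all 3 drugs. Mx1, too low to test in the other fraction, was 1.35 and 2.14 FPKM in vehicle, 1.26 and 1.22 in JQ1, 0.516 and 0.593 in JQ1 with paclitaxel, 6.18 and 1.57 in JQ1 with anti-PD-L1, and 1.39 and 1.04 with all 3 drugs, its highest value in JQ1 with anti-PD-L1 replicate 1.

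Libraries of 1 treatment stood apart in CD45-positive cells. The mean of the members was 3.10 in JQ1 replicate 1 and 2.43 in replicate 2, and 3.35 and 2.61 in 3-drug replicates 1 and 2, on the log2(FPKM + 1) scale. T cell markers summed to 154 FPKM in JQ1 replicate 1 and 42.2 in replicate 2, against 15.0 to 19.6 in vehicle, and conventional dendritic cell markers to 152 and 60.6 FPKM, against 13.7 to 19.9. With all 3 drugs T cell markers summed to 48.4 and 18.0 FPKM and conventional dendritic cell markers to 56.6 and 25.1 FPKM. Both sums thus moved with the member mean within JQ1 and within the 3-drug group. Within vehicle and within JQ1 with paclitaxel both went against it. Between the replicates of JQ1, and between those of the 3 drugs, the plasmacytoid dendritic cell sum moved with the member mean as well. It was 18.3 and 11.2 FPKM in JQ1 and 17.8 and 9.23 FPKM with all 3 drugs. Siglech was 1.39 and 2.26 FPKM in JQ1 and 1.26 and 1.23 FPKM with all 3 drugs. In vehicle the sum also followed the mean, at 15.7 and 16.8 FPKM beside 2.94 and 3.20. It went against the mean in JQ1 with paclitaxel (10.5 and 7.57 FPKM beside 2.33 and 2.60). The same held in JQ1 with anti-PD-L1 (13.1 and 17.4 FPKM beside 3.62 and 3.22). Neutrophil markers went against the member mean within JQ1, at 186 and 933 FPKM, and within the 3-drug group, at 214 and 849 FPKM. Between groups this did not hold. They summed to 1040 and 1410 FPKM in JQ1 with anti-PD-L1, the group with the highest member mean. In JQ1 with paclitaxel, the group with the lowest, they summed to 237 and 257 FPKM. B cell markers were high in both JQ1 libraries, at 147 to 162 FPKM, against 8.42 to 9.9 FPKM in vehicle. Zbp1 was 23.5 and 22 FPKM in vehicle, 43.1 and 7.19 in JQ1, 9.5 and 7.88 in JQ1 with paclitaxel, 37.2 and 22.9 in JQ1 with anti-PD-L1, and 48 and 6.94 with all 3 drugs, high in replicate 1 of JQ1 and of the 3 drugs as the member mean was. Ifnb1 was 3.81 and 1.21 FPKM in vehicle, 5.87 and 0.312 in JQ1, 0.73 and 1.26 in JQ1 with paclitaxel, 0.18 and 1.97 in JQ1 with anti-PD-L1, and 2.48 and 0 with all 3 drugs. Ifng, the gene of interferon gamma, was 0.48 and 0.108 FPKM in vehicle, 8.11 and 0.242 in JQ1, 0 and 2.09 in JQ1 with paclitaxel, 0.42 and 0.461 in JQ1 with anti-PD-L1, and 0.95 and 0.543 with all 3 drugs, highest in JQ1 replicate 1 as Ifnb1 was. The median JQ1 difference of the members, −0.30, was −0.69 without JQ1 replicate 1, −0.09 without JQ1 replicate 2, −0.45 without vehicle replicate 1 and −0.18 without vehicle replicate 2. The part of cell makeup in it was not tested.

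Against vehicle the antibody groups again had no member past the limma threshold: in JQ1 with anti-PD-L1 1 had an unadjusted p under 0.05 (0.029% of all genes called) and with all 3 drugs 3 had (0.135% of all genes called). The medians were 0.35 and −0.05. The second was 0.37 without 3-drug replicate 2 and −0.41 without 3-drug replicate 1, −0.22 without vehicle replicate 1 and 0.02 without vehicle replicate 2. Paclitaxel called none by limma (7 at an unadjusted p under 0.05, 0.0387% of all genes called, median −0.38), and the interaction none (3 at an unadjusted p under 0.05, 0% of all genes called). The single steps had no call by limma either. Anti-PD-L1 added to JQ1 left 16 members at an unadjusted p under 0.05 (0% of all genes called) and added to JQ1 with paclitaxel 12 (0.00967% of all genes called), with medians of 0.88 and 0.59. Paclitaxel added to JQ1 left 3 (0% of all genes called) and added to JQ1 with anti-PD-L1 6 (0.00967% of all genes called). Of the 103 further pathway genes 70 were tested, and the shares of all genes called are those given above. In JQ1 1 fell, Ifi27l2a (−1.5 ± 0.28, adjusted p = 0.0441), 4 fell in JQ1 with paclitaxel, led by Ifitm1 (−2.38 ± 0.44, adjusted p = 0.0231) and Lgals9 (−0.99 ± 0.19, adjusted p = 0.0267), and 2 rose with anti-PD-L1, Lgals9 (0.78 ± 0.14, adjusted p = 0.0483) and Oas1g (1.13 ± 0.20, adjusted p = 0.0485).

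Both fractions of 10 tumours were sequenced, so levels could be set side by side within a tumour, as ratios across 2 tables and with no test. In all, 8 members were higher in CD45-positive cells in all 10 tumours, 3 were higher in CD45-negative cells in all 10, and 26 varied. Over the 9618 genes that passed the filter in both tables, 14.5% were higher in CD45-positive and 33.7% higher in CD45-negative cells in every tumour. The 8 were Mx1, Sp100, Ifit2, Ifi44, Trim30a, Trim25, Dhx58 and Oas1a, with median ratios from 1.86 for Oas1a to 3.53 for Mx1, whose CD45-negative value was 0 in 1 tumour. Oasl1 had the highest median ratio, 4.20, but ranged from 0.358 to 12.8. The 3 that were higher in CD45-negative cells were Oasl2 (median ratio 0.537), Ddx58 (0.546) and Parp12 (0.649). Ifitm3, at 1.10, was near parity. The paralogs Oasl1 and Oasl2 thus lay at opposite ends of the order.

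**Figure D5:**
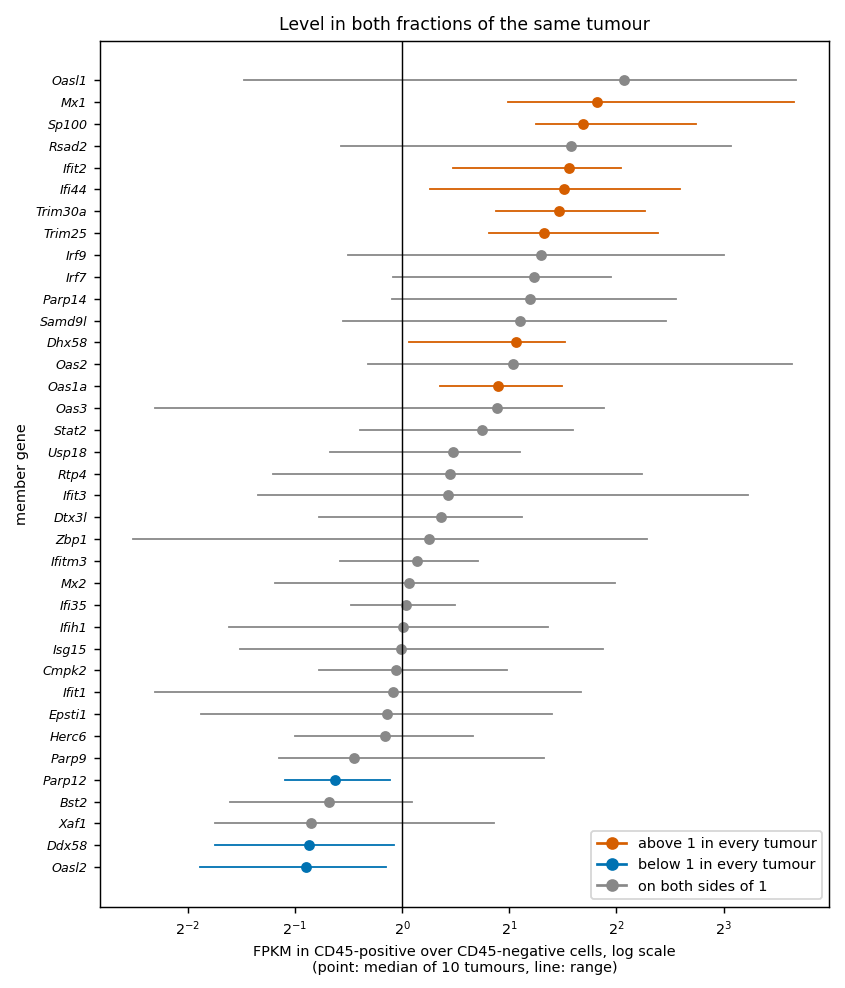
Ratio of FPKM in CD45-positive to CD45-negative cells of the same tumour for each member, on a log axis (point, median of 10 tumours; line, range). Of the members, 8 lie above 1 in every tumour and Oasl2, Ddx58 and Parp12 below 1 in every tumour.

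How much of a CD45-negative level leukocytes left in that fraction could give was computed from Ptprc, whose CD45-negative level was 3.21% to 18.6% of the CD45-positive level of the same tumour (median 6.74%). Multiplied by each member's CD45-positive level, this share had a median of 9.27% over the members' medians, from 4.29% for Bst2 to 32.7% for Mx1, or 14.6% with the pan-leukocyte sum in place of Ptprc. For Ifit3 the median was 9.27% and for Ifitm3 8.47%, while for Oasl1 it was 29.1%. In single tumours the share reached 54.3% for Ifit3, 23.9% for Ifitm3 and 74.2% for Oasl1. With the pan-leukocyte sum it reached 86.8%, 22.5% and 118.8%, the last above the CD45-negative level itself. The median over members was largest in JQ1 with anti-PD-L1 replicate 1, at 30.7%.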

How the data were processed

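Bulk RNA of CD45-negative (12) and CD45-positive (10) libraries was analysed from 2 deposited tables. The submitters' processing notes name STAR 2.5.1b and mm9, and no source used here names the tool behind the gene values. The deposited values were taken as FPKM made by the authors, a unit inferred from decimals and column sums of 296682 to 370513, although the labels speak of counts. The 37 members, their 9 role groups and the other gene lists were chosen with earlier results of these data known.

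A gene was kept where 2 or more libraries of its fraction reached 1 FPKM, and log2(FPKM + 1) was fitted with limma 3.58.1 (R 4.3.3, empirical Bayes with trend), 5 groups per fraction (residual degrees of freedom 7 in CD45-negative and 5 in CD45-positive cells, moderated to 12.8 and 8.94), two-sided, for 11 comparisons per fraction. The fit was tested on simulated data. Relative depth came from ratios of the steps between low values (66 and 45 library pairs, of which 1 and 0 were left out). Values in every library are given for at most 3 members of a role group, those of smallest adjusted p among called ones or else the most abundant; 3 pathway genes of smallest adjusted p per comparison could be named, with Ifnar1, Ifnar2, Ifnb1 and Ifng. Values outside that rule (Ifit3, Usp18, Zbp1 and others in CD45-positive cells, Ifit3b, Isg15's promoter) were chosen after they were seen. Promoters came from RefSeq, GRCm38.p6; Usp18, Parp14, Dhx58, Mx1, Parp9, Rtp4, Mx2, Zbp1 and Oas2 had no entry. Alternatives were a pseudocount of 0.1, no filter or a mean filter, median-ratio scaling, only the groups compared, libraries averaged by mouse code, covariates (depth, side, pan-leukocyte sum) and leaving out each library.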

Additional observations from a re-analysis of the deposited data

Results flagged for a closer look

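Of 296 combinations of a member and a comparison, 10 had every library of 1 fraction moving one way and every library of the other fraction moving the opposite way. All 10 are among the 288 combinations whose gene passed the filter on low values in both fractions, a share of 3.47%, beside 4.14% over all 9618 genes that passed it in the same 8 comparisons. The members' share was near that of all genes. The difference between fractions was not tested in any of them. Values are differences in log2(mean FPKM + 1), CD45-positive first. Against vehicle, JQ1 with anti-PD-L1 gave 0.37 and −0.78 for Bst2, 0.40 and −0.42 for Stat2, and −0.34 and 0.12 for Parp9. Anti-PD-L1 added to JQ1 gave −0.40 and 0.37 for Trim25 and −0.77 and 0.69 for Parp9. Paclitaxel added to JQ1 gave 0.27 and −0.28 for Mx2 and −0.20 and 0.23 for Trim30a. Paclitaxel added to JQ1 with anti-PD-L1 gave −0.96 and 0.34 for Oasl1, −0.53 and 0.78 for Bst2, and −0.38 and 0.13 for Ddx58.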

How the results depend on the processing

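No paired analysis was possible because the treatment groups share no mouse code and replicate numbers were given in accession order. No called value changed sign. Medians near 0 did, among them that of the 3 drugs against vehicle in CD45-positive cells (−0.05, 0.37 without 3-drug replicate 2, 0.02 without vehicle replicate 2), that of paclitaxel added in CD45-negative cells (−0.01, up to 0.08), and both interaction medians (−0.10 and 0.05 in CD45-negative, −0.12 and 0.16 in CD45-positive cells), as did that of paclitaxel added to JQ1 in CD45-positive cells (−0.32, 0.04 without JQ1 replicate 1) and to JQ1 with anti-PD-L1 in CD45-negative cells (−0.04, up to 0.08). Of the alternative counts of called members, 209 stayed within 1.5 times of the reported count, 53 were lower and 11 higher. Many of the 209 set 0 against 0, because a reported count of 0 cannot fall. Such were JQ1 with anti-PD-L1, the 3 drugs and the interaction in both fractions, and JQ1 and paclitaxel in CD45-positive cells. The tally therefore does not measure how stable the calls are, which the counts below give. In CD45-negative cells the JQ1 count of 9 was 5 without a filter, 0 averaged by mouse code and 3 with the depth covariate. The count of 11 for JQ1 with paclitaxel was 7 without a filter and 4 averaged by mouse code. The antibody count of 26 was 12 averaged by mouse code and 14 with the pan-leukocyte covariate. The paclitaxel count of 1 was 0 without a filter, with only the groups compared, averaged by mouse code and with the depth or side covariate, and the 3-drug count of 0 was 1 with only the groups compared. In CD45-positive cells the count of 3 for JQ1 with paclitaxel was 0 without a filter, averaged by mouse code and with the depth covariate, 1 with median-ratio scaling or the side covariate, and 11 with only the groups compared; the antibody count of 1 was 0 without a filter, with only the groups compared, averaged by mouse code and with either covariate. Leaving out single libraries gave 4 to 12 for JQ1, 5 to 12 for JQ1 with paclitaxel, 0 to 1 for JQ1 with anti-PD-L1, 0 to 2 for 3 drugs, 21 to 28 for the antibody and 0 to 1 for paclitaxel in CD45-negative cells, and 0 to 7 for JQ1 with paclitaxel and 0 to 6 for the antibody in CD45-positive cells. Fewer samples and degrees of freedom enter by construction averaged by mouse code, when libraries are left out and with only the groups compared. A covariate also leaves fewer residual degrees of freedom. Beyond that the cause was not tested. With a pseudocount of 0.1 the member medians in CD45-negative cells were −0.69 for JQ1, −0.74 for JQ1 with paclitaxel and 0.93 for the antibody. Absolute depth is unknown, which limits what can be said of members under 1 FPKM.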
